A study of Homo sapiens with 12 samples.

Results

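The data described here are the mRNA levels of 49 genes of DNA replication and S phase, of 60660 genes measured, in LNCaP and 22Rv1 cells. The genes were chosen by symbol, from what is known of their part in DNA replication and S phase, and sorted into 11 roles. Earlier results of these data were known when they were chosen. LNCaP is a prostate cancer (PCa) cell line from a lymph node metastasis that depends on androgen for growth. 22Rv1 is a PCa line from a xenograft that relapsed after castration. The study lists 22Rv1 as androgen-independent, but also reports that it was sensitive to androgen deprivation and treats it as still responsive. Each line was transfected with piR-4447944 mimic, a synthetic copy of a PIWI-interacting RNA that the labels call an overexpression, or with a negative control RNA (NC-mimic), with 3 libraries in each of the 4 groups. All 12 libraries came from cells kept without androgen, in 10% serum stripped with charcoal (CS-FBS), so no group shows these genes in full serum. The mimic itself is not read in mRNA libraries, and the time between transfection and RNA extraction was not given in the sources used here. Each line is a single line, so a difference between LNCaP and 22Rv1 is a difference between these 2 lines only. Nothing in the labels says that the 3 libraries of a group came from separate cultures, so the p-values below measure the spread between libraries, which may be technical.

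Replication starts when ORC1, CDC6 and CDT1 load the ring of MCM2 to MCM7 onto origins in G1. CDC45 and the GINS complex then turn that ring into the working helicase, primase and the polymerases alpha, delta and epsilon copy the strands, and the PCNA clamp, placed by the RFC complexes, holds the polymerases on the template. Most of these genes are transcribed at the G1/S boundary by E2F factors, which makes their mRNA a common measure of how many cells of a culture are cycling. In libraries made from whole cultures, fewer cells in S phase and less of each mRNA per cell cannot be told apart.

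The promoters of these genes are shown first. As most of these genes are known targets of E2F factors, E2F words in their promoters are not independent of the choice of the list. A window from 250 bases before to 50 bases after the annotated start was given by RefSeq (hg38) for 39 of the 49 genes, and was searched on both strands for TTTCCCGC, TTTGGCGC, TTTCGCGC and TTTGCCGC. At least 1 of these words was found in 23 of the 39 genes (59%), against 1090 of 27305 genes in the whole table (3.99%). Of the 23 genes, 16 held 1 word and 7 held 2 or more, and MCM6 held 4. Overlapping words on opposite strands were counted apart, so a count of words is not a count of separate sites. The windows below have 30 bases each, with 1 E2F word in capitals. In MCM2 and TIPIN a word on the other strand overlaps it and is partly in lower case. The first 4 belong to the genes whose mRNA differed most between the lines among those with a word, and the next 3 to genes that differed least.
HELLS: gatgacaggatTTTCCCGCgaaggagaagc (chr10:94545769-94545798, plus strand)
CDT1: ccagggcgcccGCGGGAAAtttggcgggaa (chr16:88803743-88803772, plus strand)
UNG: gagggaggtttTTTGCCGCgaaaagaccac (chr12:109098098-109098127, plus strand)
GINS2: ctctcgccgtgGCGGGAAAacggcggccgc (chr16:85688967-85688996, minus strand)
GINS1: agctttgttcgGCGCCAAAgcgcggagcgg (chr20:25407667-25407696, plus strand)
TIPIN: gcacggatttgGCGCCAAAcgctgcgggcc (chr15:66356729-66356758, minus strand)
POLA2: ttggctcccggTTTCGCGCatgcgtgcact (chr11:65261898-65261927, plus strand)
Windows of 4 further genes, the clamp, a helicase subunit, a polymerase subunit and an E2F factor, show the same words.
PCNA: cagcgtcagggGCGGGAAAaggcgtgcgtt (chr20:5126663-5126692, minus strand)
MCM2: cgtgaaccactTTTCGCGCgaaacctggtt (chr3:127598402-127598431, plus strand)
POLE2: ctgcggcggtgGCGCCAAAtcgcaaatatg (chr14:49688201-49688230, minus strand)
E2F1: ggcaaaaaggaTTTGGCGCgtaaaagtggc (chr20:33686387-33686416, minus strand)
The word GCGGGAAA is TTTCCCGC read on the other strand, and GCGCCAAA is TTTGGCGC. Of 48 other replication genes with a window 14 held an E2F word (29.2%), and of 46 G2 and mitosis genes 3 did (6.52%). The word TTTGAA, the core of the element through which many mitotic genes are kept low before G2, showed the reverse order, with 2 of 39 replication genes (5.13%), 32 of 46 G2 and mitosis genes (69.6%) and 18.2% of all genes. The word CCAAT was in 24 of 39 replication genes (61.5%), 58.3% of the other replication genes, 71.7% of the G2 and mitosis genes and 39.7% of all genes.

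The libraries held from 12161091 to 22179601 expected counts, and the lowest count of any of the 49 genes in any library was 78, for POLE2. All 9 luminal prostate markers were expressed, with KLK3 (PSA) at 1828 to 2268 TPM (transcript abundance per length, scaled to the same total in each library) in LNCaP and 24.8 to 53.4 TPM in 22Rv1. Of the basal, white blood cell and endothelial markers 1 of 4, 1 of 4 and 1 of 3 reached 1 TPM in any library. All 5 fibroblast markers did so in some library, but neither line reached 1 TPM for all 5. COL1A2 and DCN stayed below 1 TPM in every LNCaP library, and PDGFRB in every 22Rv1 library. The summed level of the 5 was 27.0 to 45.3 TPM in LNCaP, most of it COL1A1, and 7.56 to 27.6 TPM in 22Rv1. The third library of the 22Rv1 mimic group stood apart. The 49 genes took 0.239% of its counts, against 0.639% and 0.643% in the other two libraries of that group. The share of mitochondrially encoded mRNA was 1.60% there, against 4.09% and 4.31%. The main results that rest on this library are given with and without it.

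By the group mean the 49 genes covered a 32.3-fold range of levels in LNCaP NC-mimic libraries and a 33.3-fold range in 22Rv1 NC-mimic libraries. The same genes were at both ends of these means. PCNA, the sliding clamp, was the most abundant mRNA of the list on the TPM scale, at 158.7 ± 29.7 TPM in LNCaP NC-mimic and 381.6 ± 59.5 TPM in 22Rv1 NC-mimic libraries (SD, n = 3). MCM7, a subunit of the helicase ring, followed at 125.9 ± 2.42 TPM and 347.8 ± 110.5 TPM. PCNA and MCM7 in 22Rv1 differed by less than the spread between libraries. E2F8, a repressor of E2F targets, was lowest at 4.91 ± 0.833 TPM in LNCaP NC-mimic and 11.4 ± 5.93 TPM in 22Rv1 NC-mimic libraries. It differed by less than the spread between libraries from WDR76 in LNCaP (6.6 ± 2.36 TPM) and from ORC1 in 22Rv1 (13.6 ± 2.27 TPM). By summed level the helicase ring, the clamp with its loaders and FEN1, and the enzymes of nucleotide supply were the 3 highest roles in both lines. The summed level of the 6 MCM genes was 395.9, 422.7 and 366.5 TPM in LNCaP NC-mimic libraries, against 1029, 983.9 and 653.4 TPM in 22Rv1. The sum of the 7 clamp, clamp loader and flap genes was 379.8, 433.8 and 307.2 TPM in LNCaP, against 928.1, 857.9 and 698.7 TPM in 22Rv1. The 4 genes of nucleotide supply summed to 395.6, 419.1 and 326.9 TPM in LNCaP and 794.6, 688.2 and 529.5 TPM in 22Rv1. For the 3 sums each 22Rv1 library lay above each LNCaP library.

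**Figure D1:**
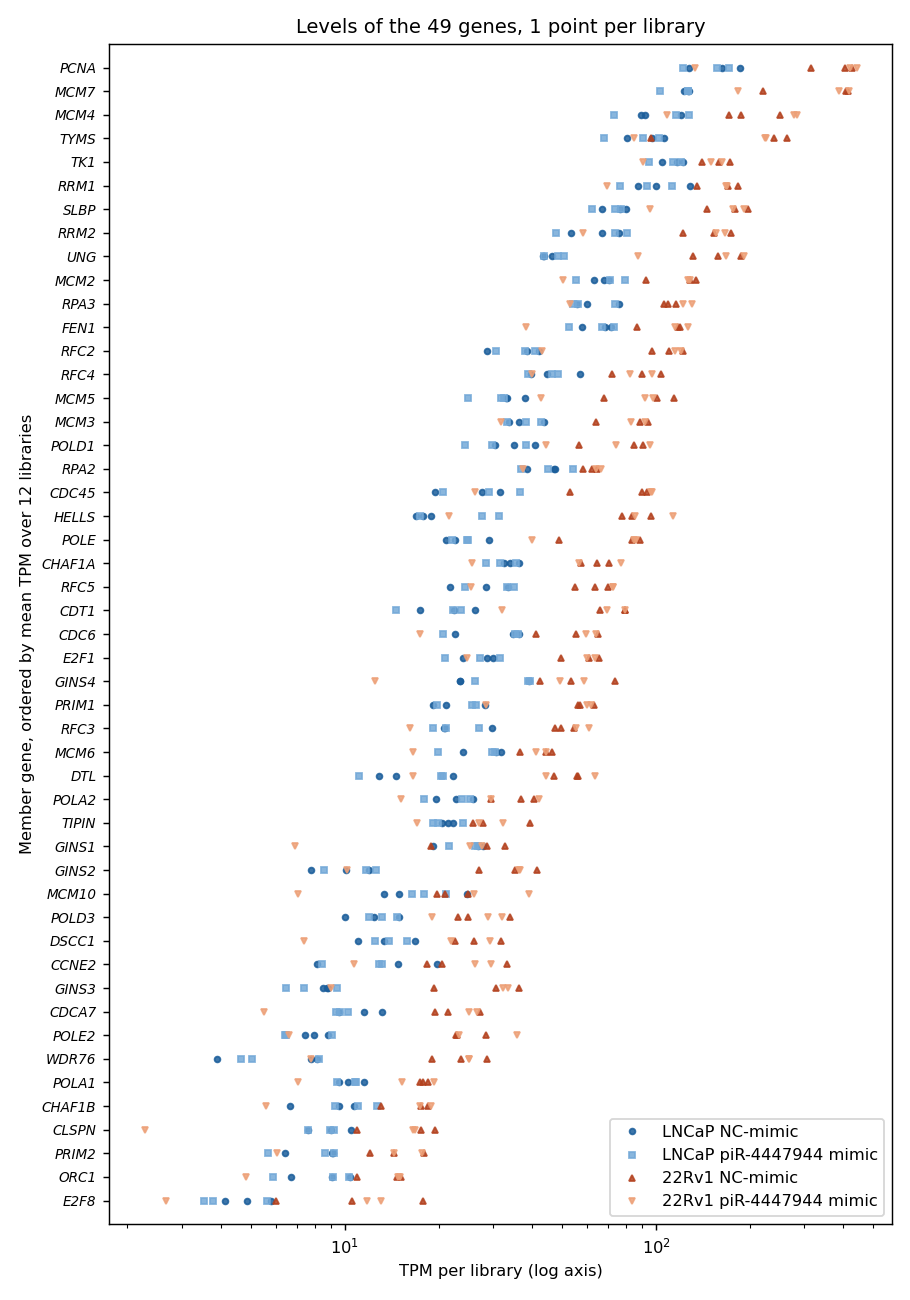
Level of each of the 49 genes in each of the 12 libraries, as TPM on a log axis, with genes ordered by their mean. PCNA is highest and E2F8 lowest in every group by the group mean, and most 22Rv1 points other than those of the third mimic library lie to the right of the LNCaP points.

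The comparison of the NC-mimic libraries asks how the 2 lines differ in replication mRNA without androgen. By the quasi-likelihood test of edgeR, with p-values adjusted by Benjamini-Hochberg over 17497 genes, 48 of the 49 genes were higher in 22Rv1 and none was lower, where 30.9% of all genes tested were called higher. The median log2 fold change of the 49 genes was 1.12, a 2.17-fold difference, against 0.015 for all genes tested. On the scale of CPM (counts scaled to a common library total, with TMM normalization), which is used for all comparisons between groups below, all 3 22Rv1 libraries lay above all 3 LNCaP libraries for 47 genes, against 34.1% of all genes. The other two were GINS1 and TYMS, and by TPM the groups also overlapped for MCM10 and CCNE2. Genes of all 11 roles were called. The role medians of the log2 fold change ran from 0.63 for the fork protection genes to 1.87 for UNG, the only gene of the uracil removal role.

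**Figure D2:**
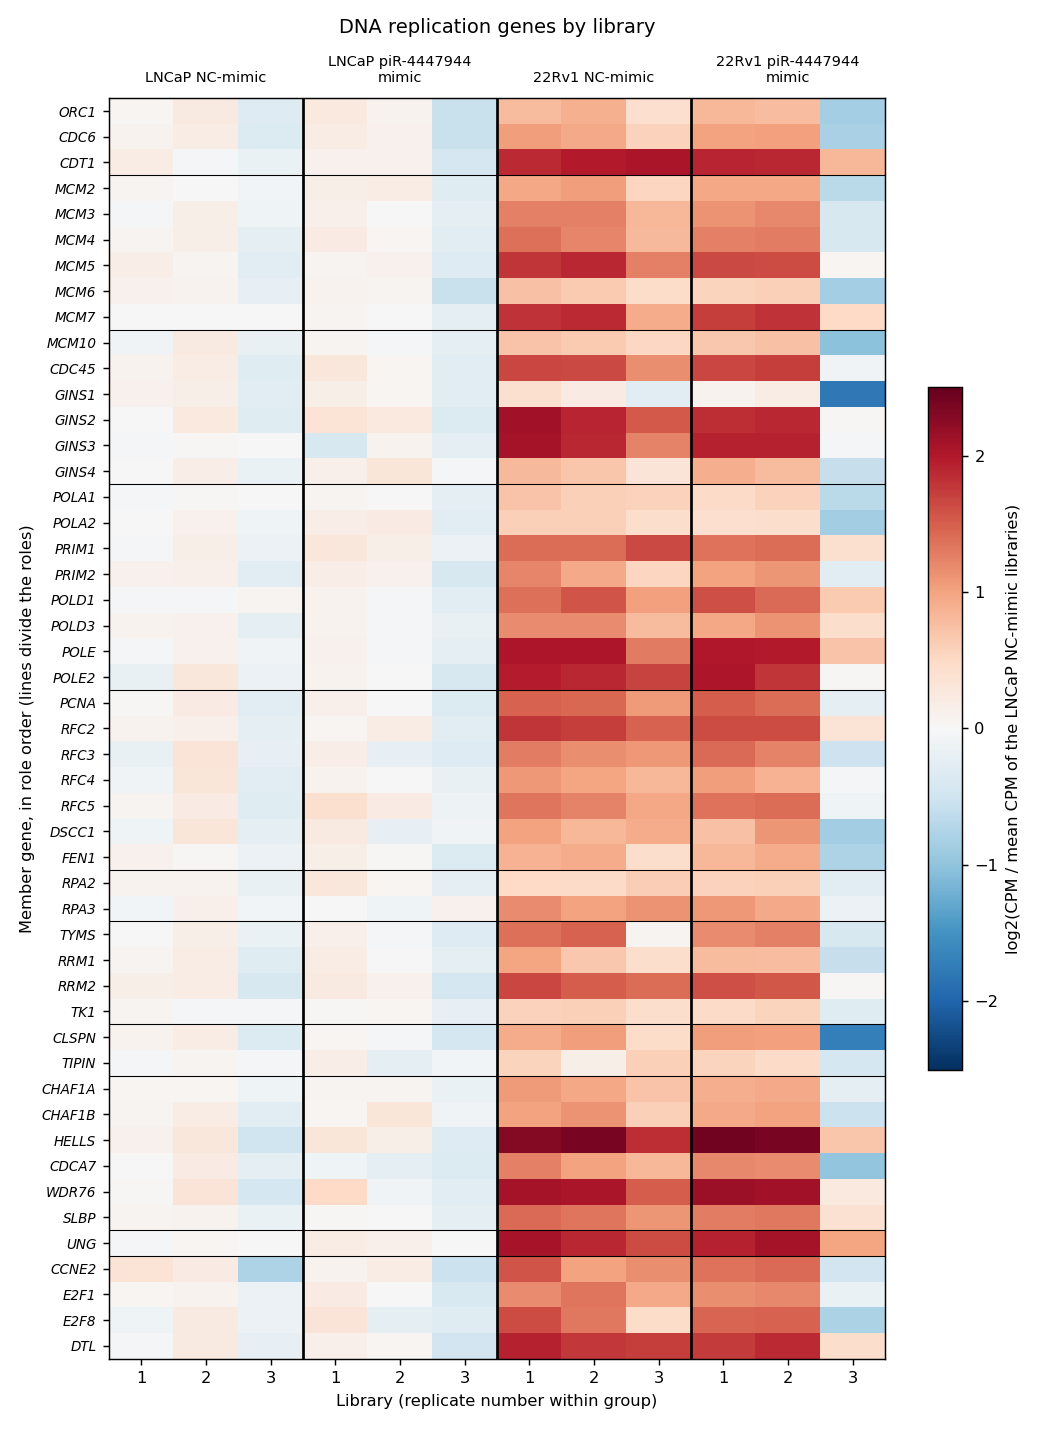
Level of each gene in each library as log2 of its CPM over the mean CPM of the LNCaP NC-mimic libraries, with genes in role order and libraries by group and replicate number. The 22Rv1 columns are red for nearly all genes, except the third mimic library, and GINS1 is pale in both lines outside that library.

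HELLS, a chromatin remodeller needed to keep DNA methylation, had the largest difference of the 49. Its level was 36.3, 41.3 and 23.9 CPM in LNCaP and 167.2, 174.8 and 122.4 CPM in 22Rv1 NC-mimic libraries. The log2 fold change was 2.18 ± 0.22 (SE), with an edgeR adjusted p of 8.93e-05. CDT1, which brings the MCM ring to the origin, was at 33.4, 28.3 and 25.9 CPM in LNCaP and at 106.7, 115.0 and 120.7 CPM in 22Rv1. It was the only called gene of the 5 with the largest difference whose highest 22Rv1 level was in replicate 3, and its log2 fold change was 1.96 ± 0.12 (SE, edgeR adjusted p = 7.42e-06). WDR76, a chromatin protein of the nucleus, was at 11.8, 14.5 and 8.53 CPM in LNCaP and 49.1, 48.0 and 33.3 CPM in 22Rv1. UNG, which cuts uracil out of new DNA, was at 59.8, 63.7 and 61.9 CPM in LNCaP and 258.8, 229.3 and 191.7 CPM in 22Rv1, a log2 fold change of 1.87 ± 0.12 (SE, adjusted p = 9.60e-06). GINS2, part of the GINS complex, was at 18.04, 21.2 and 14.4 CPM in LNCaP and 76.4, 67.3 and 51.7 CPM in 22Rv1. For each of these 5 genes the lowest 22Rv1 library was more than 2 times the highest LNCaP library.

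The 10 genes taken to stand for 9 of the 11 roles were all higher in 22Rv1. In origin licensing, CDC6 was at 57.2, 61.4 and 42.5 CPM in LNCaP and 110.7, 103.2 and 80.1 CPM in 22Rv1 (log2 fold change 0.86 ± 0.17, SE). Of the helicase ring, MCM2 was at 151.5, 143.1 and 136.6 CPM and 279.9, 297.7 and 207.6 CPM (0.86 ± 0.14). CDC45, which joins the ring to make the helicase, was at 29.2, 31.3 and 22.3 CPM and 87.4, 86.3 and 61.5 CPM (1.497 ± 0.18). These 3 showed no overlap between the lines, and replicate 3 was the lowest library of both groups. POLE2, a subunit of the leading strand polymerase, was at 5.29, 7.28 and 5.42 CPM and 23.3, 22.1 and 19.4 CPM (1.84 ± 0.20). PCNA was at 123.9, 141.5 and 100.7 CPM and 337.1, 328.8 and 256.5 CPM (1.32 ± 0.16). RRM2, the regulated subunit of the enzyme that makes deoxynucleotides, was at 91.7, 94.9 and 63.5 CPM and 266.2, 237.9 and 220.4 CPM (1.52 ± 0.16). The edgeR adjusted p for the 6 genes was between 0.000115, for RRM2, and 0.00297, for CDC6.

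Of the genes around the fork, CLSPN, which carries the checkpoint signal from stalled forks, was at 36.3, 39.2 and 27.2 CPM in LNCaP and 65.1, 70.2 and 47.3 CPM in 22Rv1 (log2 fold change 0.82 ± 0.19, SE). CHAF1B, which lays histones on new DNA, was at 27.0, 29.1 and 21.2 CPM and 52.0, 55.8 and 38.8 CPM (0.91 ± 0.18). CCNE2, the cyclin that drives S phase entry with CDK2, was at 20.8, 18.9 and 9.62 CPM and 48.98, 33.0 and 36.8 CPM (1.26 ± 0.29). E2F1, an activating E2F factor, was at 52.4, 54.3 and 45.6 CPM and 115.8, 128.7 and 97.5 CPM (1.16 ± 0.13). By CPM the groups did not overlap for any of the 4, although the CCNE2 libraries spread widely within each line. By TPM the CCNE2 groups overlapped, at 19.8, 14.9 and 8.12 TPM in LNCaP and 33.1, 18.4 and 20.5 TPM in 22Rv1. The edgeR adjusted p values of the 4 genes were 0.00607 for CLSPN, 0.00260 for CHAF1B, 0.00563 for CCNE2 and 0.000147 for E2F1.

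Among the called genes the smallest differences were in TIPIN, RPA2, TK1, POLA2 and MCM6. TIPIN, a partner of the fork protection complex, was at 17.3, 18.4 and 17.2 CPM in LNCaP and 25.9, 19.4 and 26.8 CPM in 22Rv1, with 22Rv1 replicate 2 only just above the highest LNCaP library. Its log2 fold change was 0.44 ± 0.16 (SE), and its adjusted p of 0.0447 rose above 0.05 in 5 of the other fits and without any of 5 of the 6 libraries. RPA2, which coats single-stranded DNA, was at 46.3, 46.4 and 38.8 CPM and 61.5, 61.1 and 67.3 CPM, a log2 fold change of 0.52 ± 0.11. TK1, the salvage enzyme for thymidine, was at 103.0, 96.0 and 93.7 CPM and 145.3, 147.7 and 131.9 CPM (0.53 ± 0.09). POLA2, of the priming polymerase, was at 40.3, 43.0 and 37.0 CPM and 60.6, 60.8 and 54.1 CPM (0.54 ± 0.11). MCM6 was at 81.2, 80.1 and 65.8 CPM and 125.6, 119.8 and 103.5 CPM (0.61 ± 0.12), while MCM5 and MCM7 of the same ring differed by 1.65 ± 0.18 and 1.58 ± 0.22 on the log2 scale.

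GINS1 was the only gene of the 49 that was not called. It was at 59.8, 61.5 and 46.1 CPM in LNCaP and 73.3, 63.9 and 45.8 CPM in 22Rv1, so the groups overlapped, with a log2 fold change of 0.12 ± 0.19 (SE, edgeR adjusted p = 0.600). GINS2, which stands beside GINS1 in the same complex, differed by 1.85 ± 0.19. TYMS, which makes thymidylate, was called although its groups overlapped. Its level was 87.2, 95.7 and 77.4 CPM in LNCaP and 225.1, 240.1 and 91.3 CPM in 22Rv1, where replicate 3 lay below the highest LNCaP library. Genes with and without an E2F word covered overlapping ranges. The median log2 fold change was 1.16 over the 23 genes with a word, with a range of 0.12 to 2.18, and 0.94 over the 16 genes without one, with a range of 0.53 to 1.65.

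**Figure D3:**
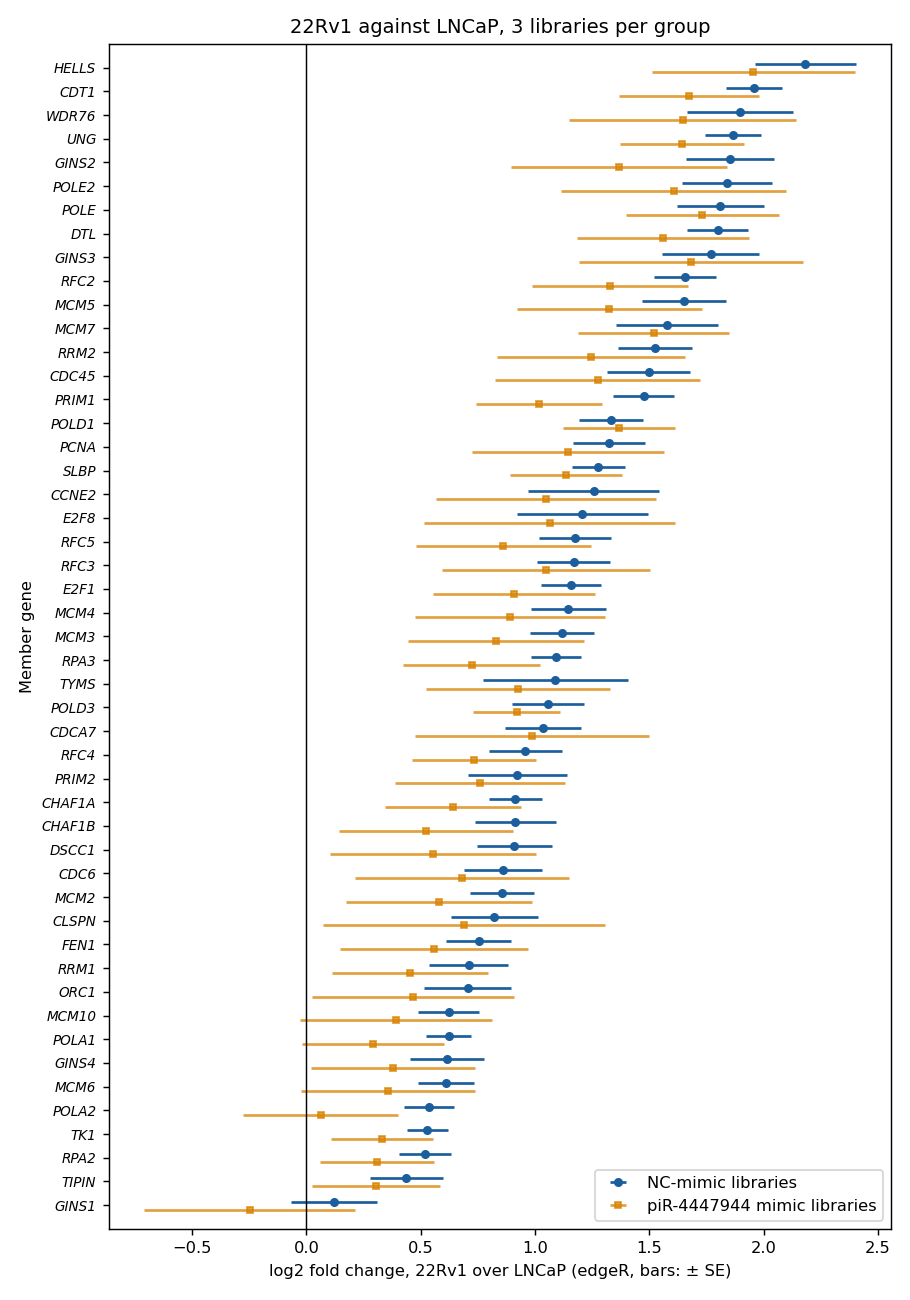
Log2 fold change of 22Rv1 over LNCaP for each gene with its SE from edgeR, in NC-mimic libraries (circles) and in piR-4447944 mimic libraries (squares), 3 libraries per group. The circles run from 0.12 for GINS1 to 2.18 for HELLS, and the squares have longer bars.

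Further replication genes outside the 49 were less uniform. Of 57 such genes 37 were called higher in 22Rv1 and 4 lower, with a median log2 fold change of 0.69. Among all genes tested 30.9% were called higher, and the share called lower is not given here. Counts of lower genes, in this paragraph and among the 49, so have no such reference. The E2F factor E2F2 was at 14.3, 11.2 and 9.68 CPM in LNCaP and 98.4, 106.5 and 94.5 CPM in 22Rv1 NC-mimic libraries, a log2 fold change of 3.08 ± 0.16 (SE). LIG1, which seals Okazaki fragments, differed by 2.66 ± 0.27, and CASP8AP2, which acts in histone mRNA supply, by 2.25 ± 0.13. The lower genes included CCNE1, the paralogue of CCNE2, at 18.7, 20.3 and 22.1 CPM in LNCaP and 7.29, 5.82 and 10.2 CPM in 22Rv1, which fell by 1.40 on the log2 scale. TOP1, which relaxes DNA ahead of the fork, fell by 1.15 and POLE4, a small subunit of polymerase epsilon, fell by 0.77, while POLE2 of that polymerase rose. Of 54 G2 and mitosis genes 40 were called higher and 4 lower, with a median of 0.75.

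The next comparison asks whether piR-4447944 mimic moved replication mRNA in LNCaP. None of the 49 genes was called by edgeR, as none of the 16244 genes tested was (0%), and none had an unadjusted p under 0.05, against 2.67% of all genes. DESeq2's Wald test also called 0 of the 49, with 0 at an unadjusted p under 0.05. The median log2 fold change was -0.041, against -0.0027 for all genes, with 14 genes higher and 35 lower. By the ratio of mean TPM 30 were lower, and 11 of the 49 turned against the ratio of mean CPM. By CPM the groups overlapped for all 49 genes, where 4.03% of all genes lay wholly higher with the mimic and 3.76% wholly lower. The SE of the 49 genes was 0.0777 to 0.244 on the log2 scale.

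CDCA7, which recruits HELLS to chromatin, had the smallest p of the 49 in LNCaP. It was at 20.3, 23.3 and 17.2 CPM with NC-mimic and 18.7, 17.4 and 16.0 CPM with piR-4447944 mimic, so the groups overlapped (log2 fold change -0.23 ± 0.13, SE, edgeR unadjusted p = 0.0945 and adjusted p = 0.999). UNG was at 59.8, 63.7 and 61.9 CPM with NC-mimic and 70.1, 67.5 and 61.6 CPM with the mimic (0.10 ± 0.08). RFC5, a clamp loader subunit, was at 37.3, 41.2 and 28.9 CPM and at 47.2, 41.5 and 32.7 CPM (0.17 ± 0.14). When 1 library was left out these values moved, from -0.33 (without NC-mimic replicate 3) to -0.12 (without NC-mimic replicate 2) for CDCA7, from 0.058 (without mimic replicate 1) to 0.15 (without mimic replicate 3) for UNG, and from 0.042 (without NC-mimic replicate 3) to 0.30 (without mimic replicate 3) for RFC5. In libraries with the same number the direction changed. The mimic library was higher for 38 of 49 genes in number 1 and lower for 37 of 49 in number 2 and in number 3, with median log2 differences of 0.118, -0.0878 and -0.0642.

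In 22Rv1 none of the 49 genes was called either, as none of the 16898 genes tested was (0%), and none had an unadjusted p under 0.05 by edgeR or by DESeq2, against 1.48% of all genes by edgeR. All 49 estimates were below 0, with a median log2 fold change of -0.27, against -0.0052 for all genes. By the ratio of mean TPM 2 of the 49 turned, MCM4 at 0.13 (-0.26 by CPM) and MCM10 at 0.14 (-0.31 by CPM). The SE of the 49 genes was 0.214 to 0.608, larger than in LNCaP. PRIM1, the catalytic subunit of primase, had the smallest p. It was at 54.0, 54.4 and 64.8 CPM with NC-mimic and 52.7, 54.1 and 27.1 CPM with the mimic (log2 fold change -0.37 ± 0.27, SE, edgeR unadjusted p = 0.210 and adjusted p = 0.999). POLA2 was at 60.6, 60.8 and 54.1 CPM and 53.6, 54.1 and 22.0 CPM (-0.44 ± 0.33). POLA1, the catalytic subunit of the priming polymerase, was at 61.5, 56.2 and 55.9 CPM and 52.3, 55.5 and 23.4 CPM (-0.40 ± 0.31). It was the only gene of the 49 whose groups did not overlap by CPM, against 4.54% of all genes that lay lower in this way. Without the third mimic library the log2 fold change was -0.11 for PRIM1, -0.12 for POLA2 and -0.097 for POLA1.

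**Figure D4:**
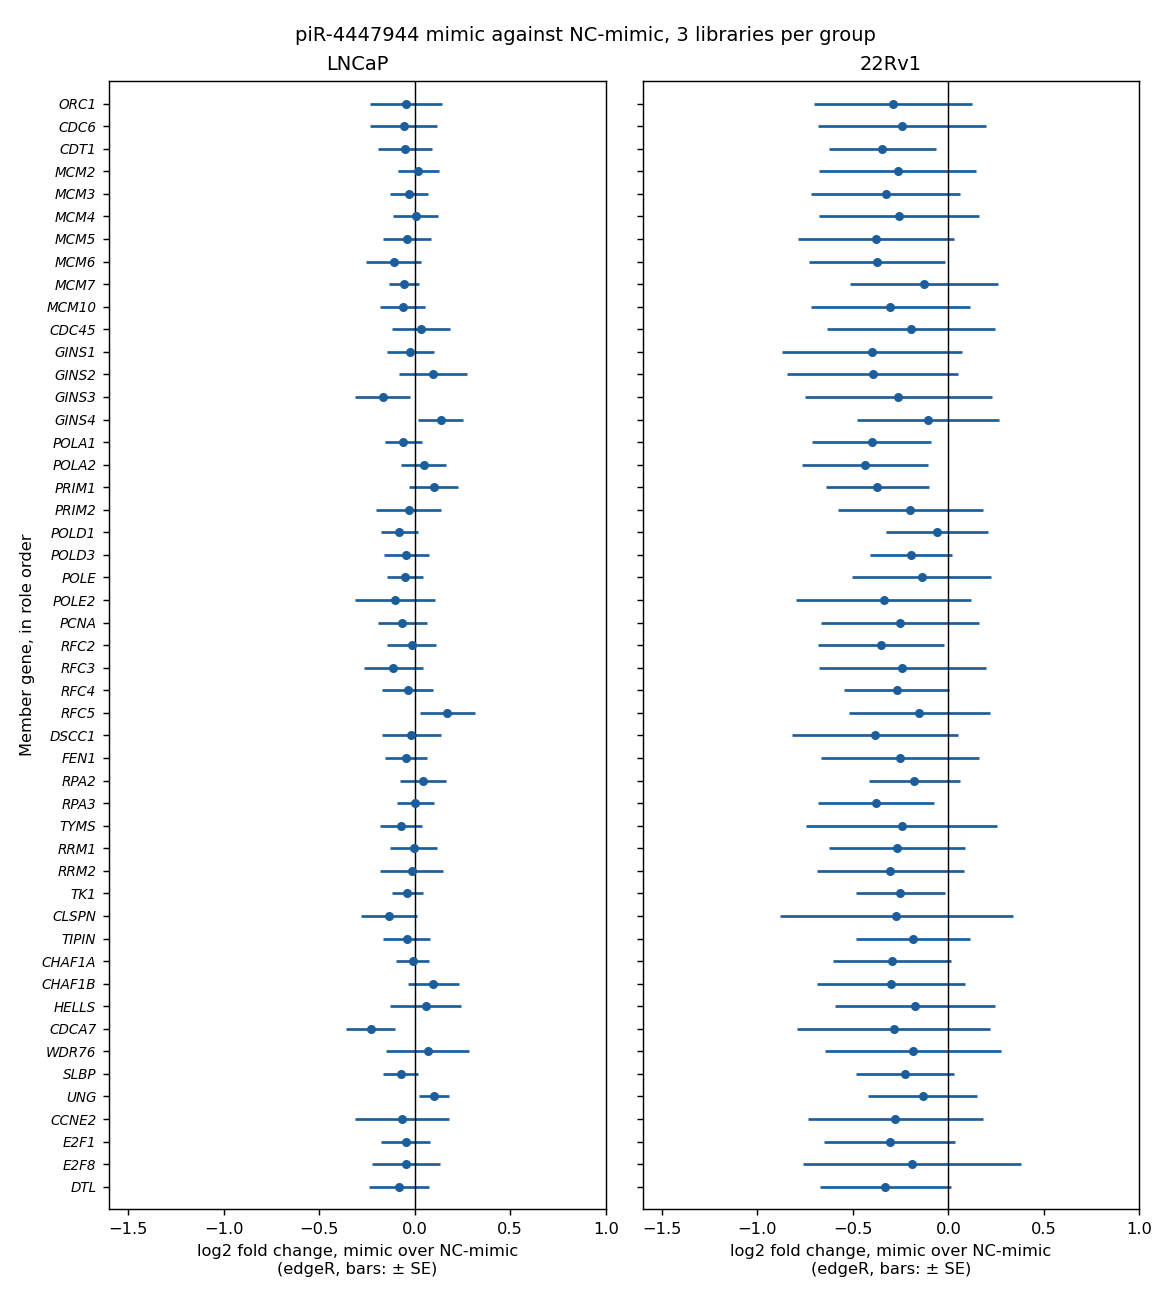
Log2 fold change of piR-4447944 mimic over NC-mimic for each gene with its SE from edgeR, in LNCaP (left) and 22Rv1 (right), 3 libraries per group. The LNCaP estimates lie on both sides of 0 and all 49 22Rv1 estimates lie below 0 with long bars.

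The direction in 22Rv1 rested on the third mimic library. Between libraries with the same number, the mimic library was lower for 36 of 49 genes in number 1 and 27 of 49 in number 2, with median log2 differences of -0.0645 and -0.0149, and lower for 49 of 49 in number 3, with a median of -1.22. Without the third mimic library the median over the 49 genes was 0.075. With the replicate number as a block the median was -0.42 and 0 genes were called. With replicates 1 and 2 of both groups it was -0.021, with 18 genes higher, 31 lower, 0 called, against 0.0234% of all genes tested in that fit, and 2 at an unadjusted p under 0.05, against 4.93%. CLSPN is an example, at 65.1, 70.2 and 47.3 CPM with NC-mimic and 71.0, 69.5 and 10.4 CPM with the mimic. PCNA was at 337.1, 328.8 and 256.5 CPM with NC-mimic and 346.5, 322.1 and 103.9 CPM with the mimic. In both genes the first pair of mimic libraries lay within or close to the control range and only the third was low.

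The effect of the mimic was also compared between the lines, in a fit over all 12 libraries. For 48 of the 49 genes the estimate was lower in 22Rv1, with a median difference of -0.25 on the log2 scale, but none was called, as none of 18720 genes was (0%). None of the 49 had an unadjusted p under 0.05 by edgeR or DESeq2, against 3.26% of all genes by edgeR. Without the third 22Rv1 mimic library the median difference was 0.078, and with replicates 1 and 2 only it was -0.032.

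The third library was the lowest of its group in all 4 groups. Its summed level of the 49 genes was 1617 TPM against 1920 and 2077 TPM in LNCaP NC-mimic, 1515 against 2035 and 1945 TPM in LNCaP mimic, 3296 against 4577 and 4190 TPM in 22Rv1 NC-mimic, and 1746 against 4413 and 4479 TPM in 22Rv1 mimic libraries. Relative to the mean of replicates 1 and 2, the median log2 CPM of the 49 genes was -0.27 in LNCaP NC-mimic, -0.37 in LNCaP mimic, -0.38 in 22Rv1 NC-mimic and -1.498 in 22Rv1 mimic libraries. Replicate 3 was the lowest library for 43, 45, 42 and 49 of the 49 genes, against 35.7%, 33.7%, 39.4% and 40.3% of all genes. What the replicate number stands for is not in the labels. These values are a description, without a test.

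In the third 22Rv1 mimic library 42 of the 49 genes lay more than 1 log2 unit under the other two libraries, as did 9.69% of all genes. The role medians differed, from -1.85 for the 2 fork protection genes to -1.003 for the 2 single-strand binding genes. They were -1.80 for the helicase activation genes, -1.66 for the clamp, clamp loader and flap genes and -1.24 for the polymerases and primase. The value was -2.74 for CLSPN, -2.23 for E2F8 and -2.16 for CDCA7. POLD3, an accessory subunit of polymerase delta, had the smallest value, -0.60, with 47.6 and 52.7 CPM in replicates 1 and 2 and 33.1 CPM in replicate 3. In the same library the median of 54 G2 and mitosis genes was -1.51, and that of 13 mitochondrially encoded genes -1.67. In the 3 other groups the mitochondrially encoded genes had medians of -0.20, -0.01 and -0.28 in replicate 3. The part of these differences in the level of replication mRNA was not tested.

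**Figure D5:**
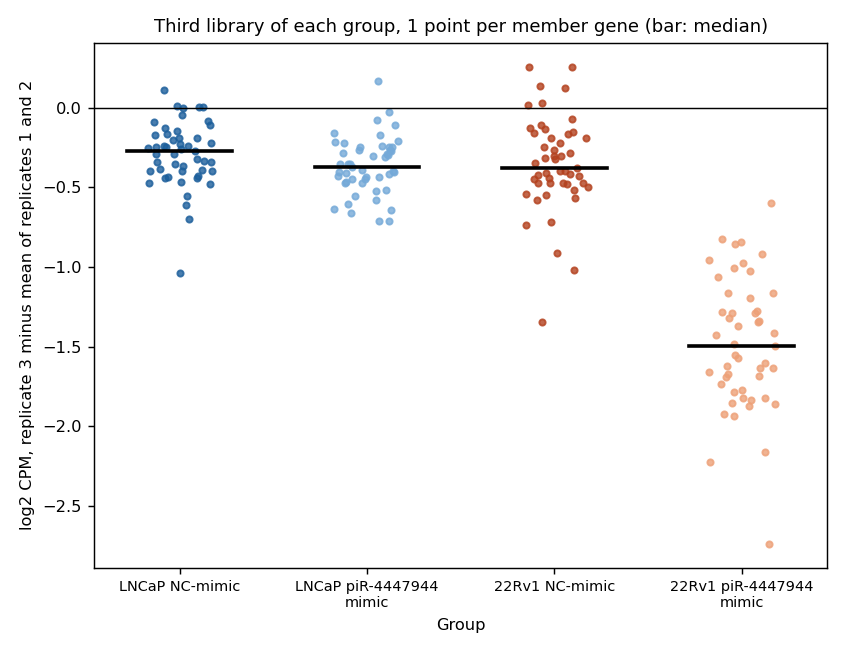
Difference in log2 CPM between replicate 3 and the mean of replicates 1 and 2 for each of the 49 genes, by group, with the median as a bar. The medians are -0.27, -0.37, -0.38 and -1.498, and in the 22Rv1 mimic group all 49 points lie below 0.

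The lines were also compared within the mimic libraries, which share no library with the NC-mimic comparison. The estimate was positive for 48 of 49 genes, with a median log2 fold change of 0.91. Of the 49 genes 18 were called higher, against 28.2% of all genes tested. All 18 were among the 48 called in NC-mimic libraries, but those 48 left out only GINS1, so this overlap was nearly fixed in advance. By CPM 11 genes did not overlap between the lines, against 32.1% of all genes. Without the third 22Rv1 mimic library 48 of the 49 were called higher, against 35.4% of all genes, and the lines did not overlap for 48, all but GINS1, against 40.2% of all genes. UNG was at 70.1, 67.5 and 61.6 CPM in LNCaP and 235.4, 261.6 and 122.2 CPM in 22Rv1 mimic libraries, and kept a log2 fold change of 1.64 ± 0.27 (SE, edgeR adjusted p = 0.00243) with the low library included. HELLS was at 41.9, 37.5 and 27.0 CPM and 179.7, 175.7 and 55.1 CPM (1.95 ± 0.44, adjusted p = 0.00932). GINS1 was at 61.6, 57.8 and 46.1 CPM in LNCaP and 59.4, 63.2 and 16.1 CPM in 22Rv1, and the lines overlapped.

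The scale also changed what HELLS showed in LNCaP. Its TPM was 17.8, 18.9 and 16.9 with NC-mimic and 31.2, 27.7 and 17.4 with piR-4447944 mimic, while its CPM was 36.3, 41.3 and 23.9 and then 41.9, 37.5 and 27.0. TPM divides by an effective length that RSEM weights over the transcripts it assigns, and for HELLS that length was 2693, 2917 and 1789 bases with NC-mimic and 1764, 1771 and 2014 bases with the mimic. The log2 ratio of the group means was 0.51 by TPM and 0.07 by CPM. The effective length ranged by more than 1.5-fold over the 12 libraries for 6 of the 49 genes, GINS4, HELLS, MCM10, MCM4, DTL and CCNE2, with a median ratio of 1.26. Whether these genes changed their transcripts was not tested.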

How the data were processed

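mRNA was sequenced in 4 groups of 3 libraries, LNCaP or 22Rv1 with either NC-mimic or piR-4447944 mimic, and groups and replicate numbers were taken from the sample labels. The authors aligned reads to hg38 with STAR 2.7.1a and estimated gene levels with RSEM 1.3.0. Strand, read length and annotation release were not given in the sources used here. The authors deposited expected counts, which are RSEM's estimates of the reads of each gene before any scaling, with reads shared between genes split among them. The authors also deposited TPM, scaled by effective length to a common total, from which the depth cannot be read. A table that repeats the TPM of all libraries was not used. The effective lengths of the 49 genes were read from the same deposited tables.

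Expected counts were rounded and tested with edgeR 4.0.16 in R 4.3.3 (TMM, filterByExpr, quasi-likelihood test), each comparison on its own 6 libraries and the difference between the lines on all 12, with Benjamini-Hochberg adjustment over all genes tested and a threshold of 0.05. The SE is the estimate divided by the square root of the F statistic. The fits were also run on simulated counts, with results that are not given here. Those counts were drawn gene by gene, so no simulated library was low for many genes at once. Alternatives used DESeq2 1.42.0, limma 3.58.1 on log2(TPM + 1), other normalizations and filters, fewer libraries and the study's rule (p under 0.05 before adjustment, with a log2 fold change beyond 0.2 either way). The text names 10 genes that stand for 9 of the 11 roles, the 3 genes with the smallest p for each mimic comparison, and the 5 largest and 5 smallest called differences between the lines in NC-mimic libraries. GINS1, TYMS, MCM4, MCM5, MCM7, MCM10, E2F8, POLD3 and the genes with variable length were named after their values were seen. The 49 genes, their roles and the other lists were chosen with earlier results of these data known.

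In 22Rv1 deviations from the group means were correlated between NC-mimic and mimic libraries with the same number. The correlations were 0.198, 0.167 and 0.355 over 18720 genes, each over the criterion of 0.1 for pairing. The highest correlation with a library of another number was 0.191, 0.117 and -0.234, so for number 1 these values were close. Deviations within a group of 3 libraries depend on each other, so the correlations cannot decide whether the numbers pair the libraries. In LNCaP the correlations between libraries with the same number were 0.0211, 0.00504 and 0.189. The main fits used no block, and fits with the replicate number as a block are given among the other settings.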

Additional observations from a re-analysis of the deposited data

How the results depend on the processing

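The number of the 49 genes called higher in 22Rv1 NC-mimic libraries was 38 to 48 over the other settings and 45 to 47 when 1 library was left out, with medians of 0.97 to 1.13 and 1.02 to 1.24 on the log2 scale. With the replicate number as a block it was 47, so 1 call was lost, TIPIN, and no other call of a named gene changed. In mimic libraries the number was 18, against 9 by limma on log2(TPM + 1), 48 with replicates 1 and 2 only, and 8 to 48 when 1 library was left out. The highest came without 22Rv1 mimic replicate 3, and each other library left out gave 8 to 10, where the group that lost a library had fewer libraries to test. With the block the number was 21. The share of all genes called higher also moved with the setting. In mimic libraries that share was 28.2% in the main fit and 35.4% without 22Rv1 mimic replicate 3. For the other settings the share is not given, also not in NC-mimic libraries, so these counts cannot be read against all genes. The mimic comparisons and their difference between the lines called 0 of 49 genes under every setting run, including the study's rule. Their medians changed sign. In LNCaP the median was 0.0097 with replicates 1 and 2 only, a choice made after the data were seen, and -0.13 to 0.084 when 1 library was left out. In 22Rv1 it was -0.50 to 0.075, and for the difference between the lines -0.46 to 0.078, with the highest value without 22Rv1 mimic replicate 3. In LNCaP the median was above 0 without NC-mimic replicate 2 (0.051) and without mimic replicate 3. With the block the 22Rv1 median was -0.42. Of 450 values of single named genes under other settings, 435 kept their side of the threshold and 15 lost it. All 15 were in the NC-mimic comparison between the lines, in TIPIN (10 settings), CDC6, CLSPN, POLA2 and MCM6 (all 12 libraries in a single fit) and CCNE2 (limma on log2(TPM + 1)). The 450 values include the named genes of the mimic comparisons. Those were not called in the main fits, so they had no call to lose.

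The biological coefficient of variation was 0.343 in the 22Rv1 mimic comparison and 0.0964 in that of LNCaP. The lowest count of any of the 49 genes was 78.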
